A study of Mus musculus with 9 samples.

Results

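The kappa light chain V segments (Igkv) were followed in RNA from mouse cells sorted as long-term hematopoietic stem cells (LT-HSCs), a small population of bone marrow cells from which blood is renewed. Of the 160 Igkv rows among the 56262 genes of the count tables, 88 held at least 50 counts summed over all 9 libraries and are the members described here. They were chosen by this summed count alone and not by group differences. A further 27 Igkv rows held 1 to 49 counts, 274 in all, and 45 held none. The members belonged to 18 V families and comprised 87 rows annotated as genes and 1 annotated as a pseudogene, Igkv2-116, while 59 of the 60 pseudogene rows fell below the minimum. Their summed counts ran between 83 and 41237, with a median of 2788. Just inside the minimum were Igkv8-34 with 83 counts and Igkv8-18 with 95. Just outside it were Igkv8-26, whose 48 counts all lay in the 5-FU+Saline libraries as 11, 14 and 23, and Igkv4-92 with 42. All 88 members passed the filter on low counts, although 4 of them (Igkv2-116, Igkv8-34, Igkv8-18 and the only Igkv11 member) had fewer than 50 counts outside the group where they were highest, so a difference in those 4, named for that reason, is in part set by the choice.

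The cells came from C57BL/6 wild-type mice in 3 groups of 3 libraries. In the 5-FU+FMT group, mice were given 250 mg/kg of 5-FU (5-fluorouracil, which is toxic to cells in division) and then FMT, which is not defined further in the labels, at 5 mg/kg into a vein after 1, 4 and 7 days. In the 5-FU+Saline group, mice received the same 5-FU and then PBS. Control mice were untreated. The harvest is placed on day 8 in the 5-FU+FMT and 5-FU+Saline groups, and no harvest day is given for Control. The labels give the sort as Lin-, Sca1+, c-Kit+ and CD150+, plus a marker spelled C48-. They state neither age nor sex, and they do not say whether a library came from 1 mouse or whether the libraries of a group came from separate mice. P-values therefore measure the spread between these libraries, which may be technical.

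A kappa light chain gene is assembled during B cell development when the RAG proteins join 1 of many V segments to a J segment, and splicing then links this VJ exon to the constant exon Igkc. Each V segment has a leader exon and a V exon, and the V exon encodes most of the variable domain, including the first stretch of the antigen-binding loop CDR3. Many V segments lie in reverse orientation to Igkc and are joined by inversion rather than deletion. Plasma cells hold very large amounts of rearranged light chain RNA, and lambda light chains are the alternative to kappa.

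All members lie on mouse chromosome 6 (mm10), between base 67609713, the start of Igkv1-135 farthest from Igkc, and base 70704177, the end of Igkv3-1 nearest to it. Igkc itself is annotated at bases 70726435 to 70726966. In the annotation, 34 members run in the orientation of Igkc and 54 run against it. The exonic length counted per member was 338 to 404 bases, of which the V exon took 294 to 321. Members of one family resembled each other closely. V exons of the same family were 88.6% identical at the median (407 pairs) and those of different families 63.9% (3421 pairs), and 41 members had another member at 95% identity or more. Of 87 members with a readable frame, 59 held 26 bases from the start of the conserved cysteine codon before CDR3 to the end of the V exon, and 54 had a glutamine codon (CAG or CAA) next to it. The 3′ ends of the 10 members with the largest mean share of Igkv counts are shown because these bases differ between the segments, also within a family. They are GENCODE M21 sequences on the build of the files, written 5′ to 3′ with the cysteine codon in capitals.
Igkv14-126: TGTctacagcatggtgagagccctcc
Igkv1-117: TGCtttcaaggttcacatgttcctcc
Igkv8-21: TGCaagcaatcttataatcttcc
Igkv10-96: TGCcaacagggtaatacgcttcctcc
Igkv1-135: TGCtggcaaggtacacattttcctca
Igkv6-15: TGTcagcaatataacagctatcctct
Igkv1-110: TGCtctcaaagtacacatgttcctcc
Igkv9-120: TGTctacaatatgctagttctcctcc
Igkv3-2: TGTcagcaaagtaaggaggttcctcc
Igkv5-43: TGTcaacagagtaacagctggcctca

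A pair of near-identical segments from the Igkv1 family and another from the Igkv8 family are shown because the 2 members of each pair were called in opposite directions in 5-FU+Saline against Control and in 5-FU+FMT against 5-FU+Saline, though not in 5-FU+FMT against Control. The last 300 bases of each V exon are given, with the bases that differ within the pair in capitals. Igkv1-135 and Igkv1-133 differ at 11 of 313 V exon bases, so that they are 96.5% identical. Igkv8-19 and Igkv8-28 differ at 7 of 316, so that they are 97.8% identical. The windows on mm10 are chr6:67610209-67610508 (plus strand) for Igkv1-135, chr6:67725362-67725661 (plus strand) for Igkv1-133, chr6:70340876-70341175 (minus strand) for Igkv8-19 and chr6:70143593-70143892 (minus strand) for Igkv8-28.
Igkv1-135: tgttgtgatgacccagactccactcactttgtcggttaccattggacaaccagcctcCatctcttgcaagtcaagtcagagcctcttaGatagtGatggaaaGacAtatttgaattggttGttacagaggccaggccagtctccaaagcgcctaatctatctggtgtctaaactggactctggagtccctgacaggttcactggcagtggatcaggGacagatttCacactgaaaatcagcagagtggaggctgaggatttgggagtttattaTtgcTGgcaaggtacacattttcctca
Igkv1-133: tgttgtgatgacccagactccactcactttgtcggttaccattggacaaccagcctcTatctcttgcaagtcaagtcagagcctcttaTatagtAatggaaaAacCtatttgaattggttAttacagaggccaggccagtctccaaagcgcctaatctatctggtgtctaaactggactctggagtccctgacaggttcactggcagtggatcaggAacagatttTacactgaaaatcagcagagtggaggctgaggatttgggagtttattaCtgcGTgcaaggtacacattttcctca
Igkv8-19: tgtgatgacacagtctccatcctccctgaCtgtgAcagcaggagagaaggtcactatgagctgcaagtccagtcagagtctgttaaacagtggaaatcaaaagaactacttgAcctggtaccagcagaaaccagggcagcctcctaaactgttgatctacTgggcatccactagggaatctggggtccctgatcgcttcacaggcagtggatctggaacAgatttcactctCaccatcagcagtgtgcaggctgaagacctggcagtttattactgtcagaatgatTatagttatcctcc
Igkv8-28: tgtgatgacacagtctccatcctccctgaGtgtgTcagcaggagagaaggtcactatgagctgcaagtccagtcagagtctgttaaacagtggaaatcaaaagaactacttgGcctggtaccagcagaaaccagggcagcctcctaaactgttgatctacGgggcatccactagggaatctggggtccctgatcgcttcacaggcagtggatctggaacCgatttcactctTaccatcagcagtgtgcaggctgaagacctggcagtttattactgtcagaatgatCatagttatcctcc

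Total gene counts were 11098031 to 19270976 per library, of which the 88 members held 38009 to 64150. Genes that mark LT-HSCs, such as Kit and Hlf, were detected in every group, with 1252 to 1295 CPM summed over 6 genes in 5-FU+FMT, 1019 to 1024 in 5-FU+Saline and 1612 to 1619 in Control libraries. Of the 6, Slamf1, Mecom and Ly6a were called higher in 5-FU+Saline than in Control (4.16-fold, 1.31-fold and 1.21-fold), and Hlf, Kit and Procr were called lower (2.33-fold, 1.84-fold and 1.21-fold). Here CPM is the count scaled to a fixed library size with TMM factors, the same in all libraries. RNA of genes that mark antibody-secreting and B-lineage cells was present as well and differed between the groups. Which cells held this RNA was not tested. The 11 plasma cell genes summed to 2403 to 2462 CPM in 5-FU+FMT, 2079 to 2130 in 5-FU+Saline and 3407 to 3506 in Control libraries. The 12 genes of pro-B and pre-B cells summed to 576 to 624 CPM in 5-FU+FMT, 1114 to 1124 in 5-FU+Saline and 207 to 219.5 in Control libraries, where 7 of the 12, Pax5 and Igll1 among them, averaged under 1 CPM. The sex-linked RNAs Xist and Ddx3y also differed between the groups, so sex and treatment cannot be told apart in any of the 3 comparisons. Both RNAs were counted in both 5-FU groups, while Control held almost no Xist. Xist averaged 682 ± 19.8 CPM in 5-FU+FMT, 1201 ± 20.2 in 5-FU+Saline and 0.870 ± 0.421 in Control libraries, and Ddx3y averaged 100.04 ± 2.28, 38.9 ± 2.58 and 168 ± 4.23 CPM in the same groups (SD, n = 3 each). Of the other lists, 9 genes of mature B cells summed to 304 to 309 CPM in 5-FU+FMT, 383 to 392 in 5-FU+Saline and 255 to 263 in Control libraries, and 8 heavy chain constant genes to 10018 to 10447, 8712 to 8944 and 15073 to 15424 CPM in the same groups. Of the 7 heavy chain genes tested, 5 were called lower in 5-FU+Saline than in Control, among them Ighm (IgM, 2.27-fold) and Igha (IgA, 1.62-fold), and 2 were called higher, Ighd (2.04-fold) and Ighg2c (1.33-fold). Among all genes tested, 32.7% were called lower and 32.8% higher in that comparison. The part of these lists in the results below was not tested. In bulk RNA, fewer cells of a type and less RNA per cell cannot be told apart.

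Kappa V RNA as a whole was lower in both 5-FU groups than in Control, and so was Igkc. The summed level of the members was 2837, 2698 and 2772 CPM in 5-FU+FMT, 2667, 2589 and 2628 CPM in 5-FU+Saline and 3606, 3485 and 3420.2 CPM in Control libraries. No library of one group overlapped another group. As a share of all gene counts the members took 0.279 ± 0.00655% in 5-FU+FMT, 0.264 ± 0.00300% in 5-FU+Saline and 0.344 ± 0.00922% in Control (SD, n = 3 each). For each of the 3 comparisons the exact two-sided permutation test gave p = 0.1, the smallest that 3 against 3 allows, so the design cannot reach 0.05 for such a value. Igkc, the kappa constant gene, averaged 3558 ± 105 CPM in 5-FU+FMT, 3421 ± 84.1 in 5-FU+Saline and 4468 ± 62.1 in Control. It was 1.31-fold lower in 5-FU+Saline than in Control (edgeR adjusted p = 3.4e-28) and 1.04-fold higher in 5-FU+FMT than in 5-FU+Saline (adjusted p = 0.0226). The ratio of summed Igkv counts to Igkc counts was 0.778 ± 0.0102 in 5-FU+FMT, 0.768 ± 0.0119 in 5-FU+Saline and 0.784 ± 0.0109 in Control. The groups overlapped in this ratio, and the exact permutation p was 0.2 for 5-FU+FMT against 5-FU+Saline, 0.3 for 5-FU+Saline against Control and 0.6 for 5-FU+FMT against Control. The J segment rows Igkj1 to Igkj5 held only 1.67 to 4.36 CPM in any group mean, and of the 5 only Igkj1 passed the test in a comparison, being 1.98-fold lower in 5-FU+Saline than in Control (adjusted p = 0.00386).

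Most lambda light chain genes were also lower in the 5-FU groups, and the kappa share of light chain counts was highest in 5-FU+Saline. Of the counts over kappa and lambda constant genes, Igkc took 80.2, 79.9 and 79.6% in 5-FU+FMT, 90.4, 90.6 and 90.4% in 5-FU+Saline and 67.3, 68.1 and 67.2% in Control libraries. Of the V counts, the Igkv members took 68.3 ± 0.702% in 5-FU+FMT, 84.1 ± 0.273% in 5-FU+Saline and 53.6 ± 0.567% in Control (SD, n = 3 each). The groups did not overlap in either share, and the exact permutation p was 0.1 in each comparison. Of 8 lambda genes tested, 6 were lower and 0 higher in 5-FU+Saline than in Control, 5 were higher and 1 lower in 5-FU+FMT than in 5-FU+Saline, and 7 were lower and 0 higher in 5-FU+FMT than in Control, while Iglj2 was at 0. Over all genes tested, 32.7% were called lower and 32.8% higher in the first of these comparisons. In the second 17.7% were called higher and 19.2% lower, and in the third 21.6% lower and 25% higher. Iglv2 averaged 879 ± 43.6 CPM in 5-FU+FMT, 136 ± 6.33 in 5-FU+Saline and 2325 ± 34.4 in Control, which made it 17.0-fold lower in 5-FU+Saline than in Control (adjusted p = 2e-85). Iglc2 was 15.3-fold lower in the same comparison and 5.76-fold higher in 5-FU+FMT than in 5-FU+Saline. Iglc1, at 209 ± 9.24 CPM in 5-FU+Saline and 209.7 ± 4.01 CPM in Control, did not pass the test between these groups (adjusted p = 0.947).

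**Figure D1:**
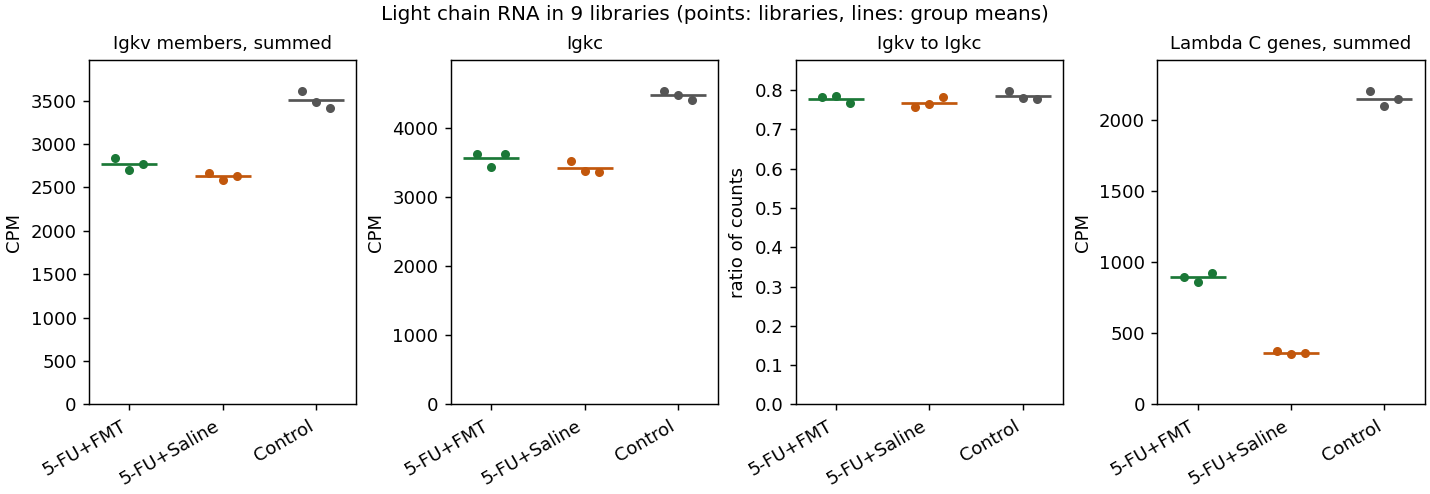
Summed level of the 88 Igkv members (CPM), level of Igkc (CPM), ratio of Igkv to Igkc counts, and summed level of the lambda constant genes (CPM) in each group; points are libraries and lines are group means. The Igkv and Igkc levels lie highest in the 3 Control libraries, the ratio lies between 0.758 and 0.797 in all 9 libraries, and the lambda genes are lowest in 5-FU+Saline.

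The make-up of the kappa V RNA by family differed between the groups, by up to 8.51 percentage points (Igkv1, 5-FU+Saline against Control), and Igkv14, Igkv6, Igkv12 and Igkv4 followed in size in that comparison. Shares below are percentages of the summed member counts of a library, so they do not depend on library scaling, and a rise in one family lowers the others. The Igkv1 family, with 7 of its 8 members among the distal members of the locus, took 13.4, 12.5 and 11.03% in 5-FU+FMT, 20.4, 20.6 and 19.9% in 5-FU+Saline and 12.7, 12.4 and 10.4% in Control libraries. All 5-FU+Saline libraries lay above all libraries of the other groups, which overlapped each other. A single segment, Igkv1-135, took 1.53% of the counts in 5-FU+FMT, 9.17% in 5-FU+Saline and 1.59% in Control. The Igkv14 family took 13.7, 13.7 and 14.0% in 5-FU+FMT, 9.24, 8.97 and 9.05% in 5-FU+Saline and 13.1, 13.3 and 13.1% in Control libraries, and the 5-FU+Saline libraries lay below all others. Igkv14-126 is the member with the most counts of all, and without that segment the Igkv14 share was 0.49 percentage points higher in 5-FU+Saline than in Control.

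The Igkv4 family, with 23 members the largest, took 16.3 ± 0.388% in 5-FU+FMT, 12.5 ± 0.177% in 5-FU+Saline and 15.0 ± 0.521% in Control (SD, n = 3 each), and no group overlapped another. Igkv12 took 7.71 ± 0.801% in 5-FU+FMT, 4.43 ± 0.130% in 5-FU+Saline and 7.03 ± 0.164% in Control, with 5-FU+Saline below both other groups. Igkv6 took 9.36 ± 0.161% in 5-FU+FMT, 8.72 ± 0.111% in 5-FU+Saline and 11.5 ± 0.0942% in Control, with Control above both 5-FU groups. The difference between 5-FU+FMT and 5-FU+Saline turned to -0.30 percentage points without the 5 members that share many 150-base stretches with another row, Igkv6-20 among them. Igkv10 took 4.49 ± 0.0594% in 5-FU+FMT, 6.58 ± 0.232% in 5-FU+Saline and 5.49 ± 0.263% in Control, and Igkv15, a family of 1 member, took 1.51 ± 0.0533% in 5-FU+FMT, 2.56 ± 0.159% in 5-FU+Saline and 1.60 ± 0.115% in Control. Both were highest in 5-FU+Saline. Igkv19, also 1 member, took 1.41 ± 0.0985% in 5-FU+FMT, 0.700 ± 0.0401% in 5-FU+Saline and 1.61 ± 0.0317% in Control, and Igkv7 took 0.112 ± 0.0290% in 5-FU+FMT, none in 5-FU+Saline and 0.333 ± 0.0410% in Control. Igkv8 took 11.3 ± 0.303% in 5-FU+FMT, 12.6 ± 0.162% in 5-FU+Saline and 12.2 ± 0.145% in Control, but the difference between 5-FU+Saline and Control turned to -0.23 percentage points when Igkv14-126 was left out of the sum.

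Of the 18 families, 16 had shares that did not overlap between 5-FU+Saline and Control (8 higher, 8 lower), 15 between 5-FU+FMT and 5-FU+Saline (8 higher, 7 lower) and 12 between 5-FU+FMT and Control (7 higher, 5 lower). For each of these the exact permutation p was 0.1, the smallest possible, and 0.126 after Benjamini-Hochberg adjustment over the 54 family comparisons, so none can pass a threshold of 0.05 at this number of libraries. The comparisons share groups and the shares of families are not independent of each other. The CPM of 67.8%, 46.3% and 52.7% of all genes tested did not overlap in the same 3 comparisons. That is a level per gene and not a summed share, so it is only a rough scale for the family counts. The Igkv5 share overlapped in all 3 comparisons. The Igkv11 share did not overlap in any of the 3 and is in each of the counts above. Its only member held 149 counts, of which 44 lay outside 5-FU+FMT, and is a member only through 5-FU+FMT. The high Igkv11 share in 5-FU+FMT is therefore in part set by the choice of members.

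**Figure D2:**
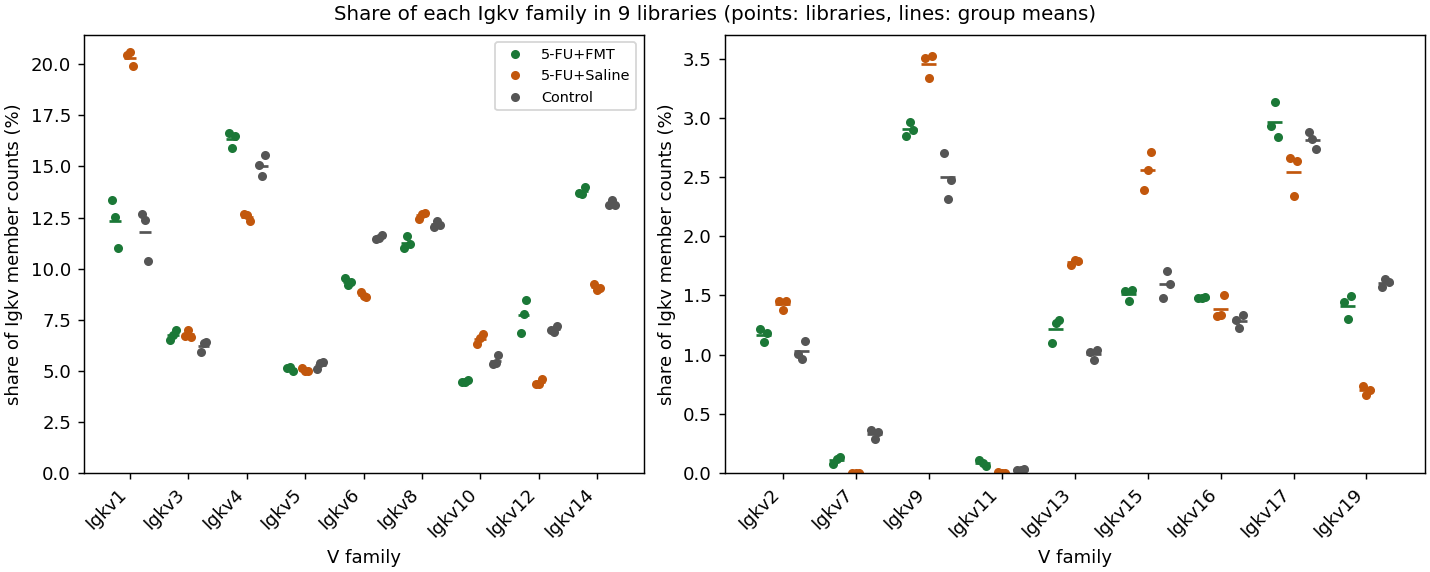
Share of each of the 18 Igkv families in the summed member counts (%), with families that reach 4% in a group mean on the left and the others on the right; points are libraries and lines are group means. The Igkv1 share lies at 19.9 to 20.6% in the 5-FU+Saline libraries and at 10.4 to 13.4% in all others, whereas Igkv14, Igkv12 and Igkv19 are lowest in 5-FU+Saline.

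The counts were spread over many segments in every group, somewhat less evenly in 5-FU+Saline. The effective number of segments, taken as the exponential of the Shannon entropy of the shares, was 48.4, 48.6 and 48.7 in 5-FU+FMT, 42.3, 42.4 and 42.4 in 5-FU+Saline and 45.8, 45.4 and 46.4 in Control libraries. By the inverse Simpson index it was 30.3 ± 0.358, 27.8 ± 0.109 and 29.1 ± 0.318 in the same groups. The 10 most abundant segments of a library held 42.4 ± 0.212% of the member counts in 5-FU+FMT, 48.6 ± 0.133% in 5-FU+Saline and 44.5 ± 0.525% in Control. None of these 3 measures overlapped between any pair of groups (exact permutation p = 0.1 in each comparison, the smallest possible).

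Ranked by CPM per kilobase of counted exon, Igkv14-126 led in 5-FU+FMT (912) and in Control (1148), and Igkv1-135 led in 5-FU+Saline (611) ahead of Igkv14-126 (521). A set of 6 segments stood among the first 10 in all 3 groups: Igkv14-126, Igkv1-117, Igkv8-21, Igkv10-96, Igkv6-15 and Igkv9-120. The first 10 of 5-FU+FMT and 5-FU+Saline shared 7, those of 5-FU+Saline and Control shared 7, and those of 5-FU+FMT and Control shared 6. Igkv14-126, known from antibodies of innate-like B cells that bind phosphatidylcholine, took 11.8% of the member counts in 5-FU+FMT, 7.10% in 5-FU+Saline and 11.7% in Control. Igkv10-96, known from antibodies to arsonate, took 3.53%, 5.30% and 4.46% in the same groups.

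By position, the 29 members farthest from Igkc took a larger share in 5-FU+Saline and the 30 in the middle a smaller one. The distal members took 44.9, 43.8 and 42.7% in 5-FU+FMT, 49.7, 49.5 and 49.8% in 5-FU+Saline and 41.8, 41.5 and 39.8% in Control libraries. The middle members took 23.5 ± 0.821%, 17.8 ± 0.0605% and 23.9 ± 0.805% in the same groups, with 5-FU+Saline below both others and an overlap between 5-FU+FMT and Control. The 29 proximal members took 32.6 ± 0.355%, 32.5 ± 0.183% and 35.1 ± 0.557%, with both 5-FU groups below Control. Members in the orientation of Igkc took 45.6 ± 0.934% in 5-FU+FMT, 51.4 ± 0.150% in 5-FU+Saline and 43.2 ± 1.06% in Control. Where groups did not overlap, the exact permutation p was 0.1. Single segments weigh on these sums, since Igkv14-126, Igkv1-117 and Igkv1-135 all lie in the distal part in the orientation of Igkc.

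5-FU+Saline against Control asks how the kappa V RNA of the sorted cells differed after 5-FU. Segments moved in both directions, with more falling than rising. Of the 88 members, 50 were called lower and 29 higher at an adjusted p under 0.05 in edgeR's quasi-likelihood test, adjusted over all 16595 genes tested, while 32.7% of all genes were called lower and 32.8% higher. Together 79 were called, against 65.5% of all genes. At a fitted fold of at least 2, 36 members were called lower (11.2% of all genes) and 14 higher (6.51%). The CPM of 78 members did not overlap between the groups, against 67.8% of all genes. The median log2 fold change was -0.67 over the members and -0.02 over all genes. On a scale relative to the summed Igkv counts, 44 members were called lower and 34 higher (14.4% and 56.1% of all genes). That scale moved the median of all genes to 0.39 here, to -0.07 for 5-FU+FMT against 5-FU+Saline and to 0.33 for 5-FU+FMT against Control. The upper-quartile scaling moved it to -0.10 here.

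The segments named for each comparison are the 5 with the largest fold in each direction among those called, with at least 10 CPM in the mean of 1 of the 2 groups compared and no overlap between them. Rarer segments could rise or fall more and are not ranked. By this rule the segments that rose most were Igkv3-1, Igkv4-58, Igkv3-5, Igkv1-135 and Igkv8-19. Igkv3-1, the member nearest to Igkc, stood at 11.8, 13.5 and 11.9 CPM in 5-FU+FMT, 11.2, 11.6 and 8.67 CPM in 5-FU+Saline and 0.149, 0.183 and 0 CPM in Control libraries. Control held only 4 counts of it over its 3 libraries, against 519 in 5-FU+Saline, a ratio of 111 with a 95% counting interval of 43.2 to 410.0. Its fitted log2 fold change was 6.69, and between 5.91 and 7.22 with 1 library left out. Both 5-FU groups lay far above every Control library and overlapped none of them. Igkv1-135, the member farthest from Igkc, stood at 42.1, 40.2 and 44.99 CPM in 5-FU+FMT, 241, 239 and 242 CPM in 5-FU+Saline and 62.5, 52.8 and 51.8 CPM in Control libraries. It was 4.34-fold higher in 5-FU+Saline than in Control (log2 fold change 2.12 ± 0.0468 SE, adjusted p = 1.3e-52), and by counts it was the largest of the segments that rose. Igkv8-19 stood at 7.20, 10.2 and 6.28 CPM in 5-FU+FMT, 53.2, 52.5 and 50.5 CPM in 5-FU+Saline and 13.5, 10.2 and 12.6 CPM in Control libraries, with 5-FU+Saline alone high, and was 4.26-fold higher in 5-FU+Saline than in Control (adjusted p = 7.6e-32). Igkv4-58 stood at 3.73, 2.67 and 3.18 CPM in 5-FU+FMT, 16.7, 16.0 and 15.0 CPM in 5-FU+Saline and 2.01, 1.56 and 1.49 CPM in Control libraries , and its level in 5-FU+Saline was 9.42-fold that in Control. Igkv3-5 stood at 14.1, 15.4 and 14.4 CPM in 5-FU+FMT, 20.2, 24.4 and 21.2 CPM in 5-FU+Saline and 3.36, 3.30 and 3.84 CPM in Control libraries, and its level in 5-FU+Saline was 6.18-fold that in Control. Igkv4-58 was thus far higher in 5-FU+Saline than in either other group, Igkv3-5 was high in both 5-FU groups, and in neither segment did 5-FU+Saline overlap Control.

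Of the segments at 10 CPM or more, those that fell most were Igkv7-33, Igkv4-57-1, Igkv6-20, Igkv4-86 and Igkv12-89. Igkv7-33, the only Igkv7 member and known from antibodies to phosphorylcholine, held 35, 46 and 52 counts in 5-FU+FMT, none in any 5-FU+Saline library and 176, 109 and 224 in Control libraries. Against a floor of 3 counts over the group it was at least 198-fold lower in 5-FU+Saline than in Control. Igkv4-57-1 stood at 50.9, 46.8 and 50.3 CPM in 5-FU+FMT, 6.41, 5.34 and 5.32 CPM in 5-FU+Saline and 118, 118 and 118 CPM in Control libraries. It was 20.8-fold lower in 5-FU+Saline than in Control (log2 fold change -4.38 ± 0.0778 SE, adjusted p = 4.2e-59), and the 3 groups did not overlap. Igkv12-89 stood at 39.5, 35.8 and 42.0 CPM in 5-FU+FMT, 7.93, 9.29 and 8.42 CPM in 5-FU+Saline and 80.8, 78.6 and 80.5 CPM in Control libraries, which made it 9.36-fold lower in 5-FU+Saline than in Control (adjusted p = 6.1e-49). Igkv4-86 stood at 10.9, 11.6 and 9.39 CPM in 5-FU+FMT, 2.51, 2.23 and 1.81 CPM in 5-FU+Saline and 23.4, 21.7 and 20.8 CPM in Control libraries, 10.1-fold lower in the same comparison. In all 3 of these segments 5-FU+Saline was lowest, 5-FU+FMT lay between and Control was highest, with no overlap. Igkv6-20 had the same order at 33.9, 28.4 and 32.4 CPM in 5-FU+FMT, 5.35, 5.41 and 5.58 CPM in 5-FU+Saline and 58.5, 55.6 and 54.1 CPM in Control libraries, and was 10.3-fold lower in 5-FU+Saline than in Control. Since 46.0% of its 150-base stretches also occur in the row Igkv6-29, its level is uncertain.

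Besides Igkv7-33, 5 members had no count in any 5-FU+Saline library while no member was without counts in 5-FU+FMT or Control. Igkv4-78, with 284 counts in Control, was at least 110.4-fold lower in 5-FU+Saline. Igkv1-132, with 171 in Control, was at least 66.5-fold lower, Igkv4-51 at least 48.96-fold, Igkv2-116 at least 27.6-fold and Igkv8-18 at least 13.2-fold. These segments are named because their counts were 0. The bounds allow for counting error in the group without counts only, and take the count of the higher group as exact. Of these segments, Igkv2-116 reached the minimum of 50 counts only through Control, and Igkv8-18 only through 5-FU+FMT. That the reverse case is absent also depends on this minimum. Igkv8-26, left out with 48 counts, had 11, 14 and 23 in the 5-FU+Saline libraries and none in Control or 5-FU+FMT. How many of all genes had no count in only 1 group is not given here.

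Among the most abundant segments, Igkv14-126 fell to 194, 180.3 and 185 CPM in 5-FU+Saline libraries, against 419, 414 and 399 CPM in Control libraries (2.201-fold lower, adjusted p = 5.1e-46). Igkv6-15 was 2.41-fold lower, with means of 55.5 ± 2.22 CPM in 5-FU+Saline and 133 ± 3.56 CPM in Control (SD, n = 3 each). Igkv1-117 rose, with means of 191 ± 9.46 and 135 ± 9.78 CPM in the same groups (1.41-fold higher, adjusted p = 3.3e-17), and Igkv5-43 was 1.21-fold higher. Igkv3-2 was 1.35-fold lower, a call lost relative to summed Igkv counts (adjusted p = 0.776). Igkv8-21 was 1.32-fold lower in CPM, but relative to summed Igkv counts its log2 fold change was 0.012 (adjusted p = 0.818). Igkv10-96 was 1.12-fold lower in CPM and higher relative to summed Igkv counts (log2 fold change 0.25, adjusted p = 2.1e-06). Igkv9-120, at 75.3 ± 4.19 CPM in 5-FU+Saline and 77.2 ± 8.49 CPM in Control, did not pass the test (adjusted p = 0.556), but was called higher relative to summed Igkv counts (log2 fold change 0.38, adjusted p = 1e-08).

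Families did not move as units. The Igkv4 family had 10 members called higher and 11 called lower in 5-FU+Saline than in Control, and Igkv3 had 4 higher and 3 lower. In Igkv1, 2 members were higher and 6 lower although the family's share rose, with Igkv1-135 alone at 9.17% of all member counts. Igkv14 had 1 higher and 3 lower, Igkv6 had 2 higher and 5 lower, Igkv8 had 2 higher and 6 lower, and Igkv12 had 2 higher and 3 lower. By position, 8 distal members were higher and 18 lower, 11 middle members higher and 16 lower, and 10 proximal members higher and 16 lower. Plasma cell genes stood beside these calls with 2 of 11 higher and 8 lower in 5-FU+Saline than in Control, among them Jchain, the joining chain of secreted IgA and IgM (1.80-fold lower). Pro-B and pre-B cell genes stood with 12 of 12 higher, among them the surrogate light chain gene Igll1 at 149 ± 4.89 CPM in 5-FU+Saline and 0.308 ± 0.221 CPM in Control. The shares over all genes in this comparison were 32.8% called higher and 32.7% lower.

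**Figure D3:**
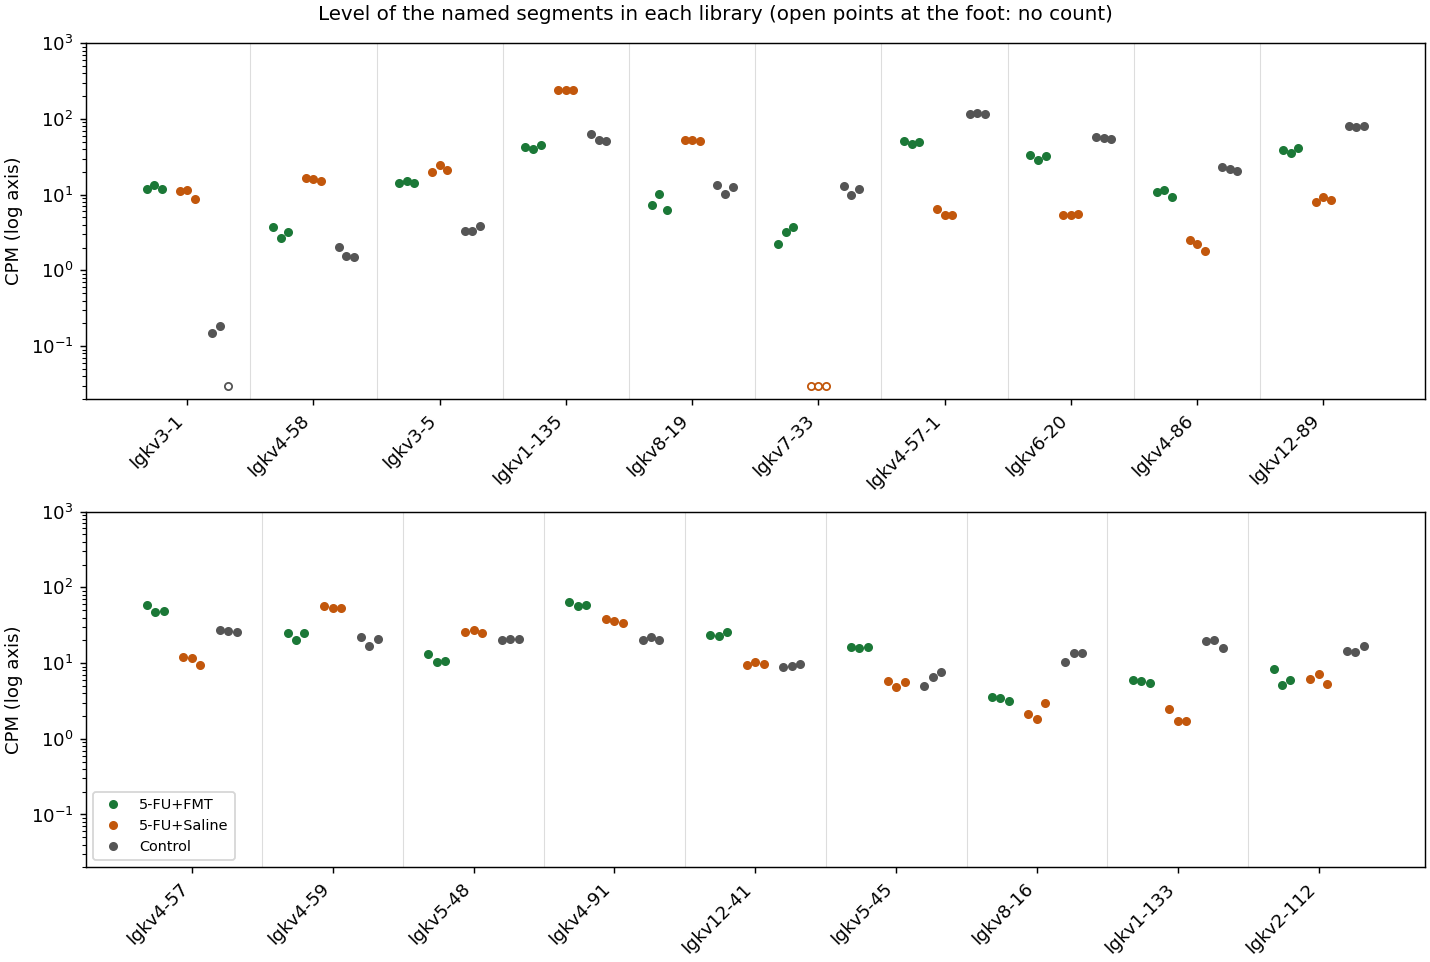
CPM on a log axis of the 19 segments named for their change, in each library; open points at the foot mark libraries with no count. Igkv1-135, Igkv8-19 and Igkv4-58 are highest in 5-FU+Saline, and Igkv4-57-1, Igkv6-20, Igkv4-86 and Igkv12-89 have 5-FU+Saline lowest, 5-FU+FMT between and Control highest.

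5-FU+FMT against 5-FU+Saline asks how the kappa V RNA differed when FMT and not PBS followed 5-FU. More segments rose than fell. Of the 88 members, 45 were called higher and 26 lower, against 17.7% and 19.2% of all genes. Together 71 were called, against 36.9% of all genes. At a fitted fold of at least 2, 30 members were called higher (3.53% of all genes) and 8 lower (1.61%). The CPM of 74 members did not overlap between the groups, against 46.3% of all genes. The median log2 fold change was 0.35 over the members and 0.01 over all genes. Relative to the summed Igkv counts, 44 members were called higher and 30 lower (11.8% and 26.4% of all genes).

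By the same rule, at 10 CPM or more, the segments that rose most were Igkv4-57-1, Igkv6-20, Igkv4-86, Igkv4-57 and Igkv12-89. Igkv4-57-1 was 8.71-fold higher in 5-FU+FMT than in 5-FU+Saline (log2 fold change 3.12 ± 0.0857 SE, adjusted p = 9.9e-46). Its means were 49.3 ± 2.23 CPM in 5-FU+FMT and 5.69 ± 0.624 CPM in 5-FU+Saline (SD, n = 3 each). Igkv6-20 was 5.78-fold higher, Igkv4-86 4.91-fold and Igkv12-89 4.57-fold, from the library values given above. Igkv4-57, a neighbour of Igkv4-57-1 in the same family, stood at 58.1, 47.9 and 48.8 CPM in 5-FU+FMT, 12.0, 11.8 and 9.55 CPM in 5-FU+Saline and 27.6, 26.4 and 25.4 CPM in Control libraries. It was 4.69-fold higher in 5-FU+FMT than in 5-FU+Saline (adjusted p = 1.2e-34), and here 5-FU+FMT also lay above all Control libraries. The 6 segments without a count in 5-FU+Saline were all counted in 5-FU+FMT. There Igkv7-33 was at least 51.0-fold higher, Igkv4-78 at least 33.0-fold and Igkv4-51 at least 30.3-fold. Igkv8-18 was at least 23.4-fold higher, Igkv1-132 at least 22.6-fold and Igkv2-116 at least 9.59-fold. Igkv8-18 is a member only through its counts in 5-FU+FMT, so its bound is in part set by the choice of members. Igkv2-116 held only 25 counts in 5-FU+FMT, and took 0.0249, 0.00260 and 0.0339% of the member counts in its libraries. Its bound therefore rests almost wholly on replicates 1 and 3 of 5-FU+FMT.

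Among segments at 10 CPM or more, those that fell most were Igkv8-19, Igkv1-135, Igkv4-58, Igkv4-59 and Igkv5-48. Igkv8-19 averaged 7.89 ± 2.04 CPM in 5-FU+FMT and 52.1 ± 1.38 CPM in 5-FU+Saline, and was 6.60-fold lower (adjusted p = 2.2e-36). Igkv1-135 averaged 42.4 ± 2.40 CPM in 5-FU+FMT and 241 ± 1.32 CPM in 5-FU+Saline, and was 5.68-fold lower (log2 fold change -2.51 ± 0.0484 SE, adjusted p = 4.4e-56). Igkv4-58 was 4.94-fold lower. Igkv4-59 stood at 25.02, 19.9 and 24.6 CPM in 5-FU+FMT, 56.8, 54.0 and 54.1 CPM in 5-FU+Saline and 21.8, 17.1 and 20.7 CPM in Control libraries and was 2.37-fold lower in 5-FU+FMT than in 5-FU+Saline (adjusted p = 4e-23). Igkv5-48 stood at 13.2, 10.2 and 10.7 CPM in 5-FU+FMT, 25.5, 27.7 and 25.1 CPM in 5-FU+Saline and 20.4, 20.6 and 21.1 CPM in Control libraries, 2.29-fold lower in the same comparison. The 5-FU+Saline libraries were the highest for all 5 of these segments.

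Of the abundant segments, Igkv14-126 rose to 335, 314 and 330.3 CPM in 5-FU+FMT libraries, against 194, 180.3 and 185 CPM in 5-FU+Saline libraries (1.75-fold, adjusted p = 2.3e-35). Igkv6-15 and Igkv3-2 were 1.20-fold and 1.27-fold higher. Igkv8-21, Igkv10-96 and Igkv5-43 were 1.31-fold, 1.42-fold and 1.22-fold lower. Igkv1-117 was 1.12-fold lower (adjusted p = 0.00154), with overlapping libraries, and the call was lost with DESeq2 (adjusted p = 0.094) and without 5-FU+FMT replicate 2 (adjusted p = 0.0546). Igkv9-120 did not pass the test (adjusted p = 0.0953), but did relative to summed Igkv counts (log2 fold change -0.19, adjusted p = 0.00626). By family, Igkv4 had 13 members called higher and 7 lower, Igkv8 had 6 higher and 3 lower, Igkv6 had 5 higher and 2 lower, and all 3 Igkv10 members were lower. Of the marker genes, 4 of 11 plasma cell genes were higher and 2 lower in 5-FU+FMT than in 5-FU+Saline, and 12 of 12 pro-B and pre-B cell genes were lower. Among all genes, 17.7% were called higher and 19.2% lower.

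5-FU+FMT against Control asks how far the kappa V RNA differed from that of untreated mice when 5-FU was followed by FMT. More segments were lower than higher in CPM, and this balance depended on the scale. Of the 88 members, 46 were called lower and 22 higher, against 21.6% and 25% of all genes. Together 68 were called, against 46.6% of all genes. Relative to the summed Igkv counts the calls were 36 lower and 36 higher (5.95% and 55.1% of all genes). At a fitted fold of at least 2, 19 members were called lower (3.2% of all genes) and 11 higher (3.48%). The CPM of 66 members did not overlap, against 52.7% of all genes. The median log2 fold change was -0.31 over the members and -0.01 over all genes.

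Among segments at 10 CPM or more, Igkv3-1 again rose most, with 540 counts in 5-FU+FMT and 4 in Control (ratio 133, 95% counting interval 51.7 to 491). Igkv3-5 was 4.12-fold higher in 5-FU+FMT than in Control (adjusted p = 3.6e-21). Igkv4-91, known like Igkv14-126 from antibodies to phosphatidylcholine, stood at 63.7, 57.6 and 58.7 CPM in 5-FU+FMT, 38.5, 35.5 and 34.2 CPM in 5-FU+Saline and 20.4, 22.1 and 20.4 CPM in Control libraries. The 3 groups did not overlap, and it was 2.88-fold higher in 5-FU+FMT than in Control (log2 fold change 1.52 ± 0.0745 SE, adjusted p = 7.6e-30). Igkv12-41 stood at 23.5, 22.8 and 25.7 CPM in 5-FU+FMT, 9.39, 10.3 and 9.81 CPM in 5-FU+Saline and 8.95, 9.17 and 9.81 CPM in Control libraries. Igkv5-45 stood at 16.5, 15.7 and 16.2 CPM in 5-FU+FMT, 5.75, 4.77 and 5.63 CPM in 5-FU+Saline and 5.00, 6.60 and 7.62 CPM in Control libraries. Both were high in 5-FU+FMT alone, 2.57-fold and 2.49-fold above Control. Igkv5-45 shares 18.6% of its 150-base stretches with Igkv5-43, where they make up 19.1%, so the levels of both are uncertain.

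By the naming rule, at 10 CPM or more, the segments that fell most were Igkv7-33, Igkv8-16, Igkv1-133, Igkv4-57-1 and Igkv2-112. Igkv7-33 averaged 3.08 ± 0.764 CPM in 5-FU+FMT and 11.7 ± 1.58 CPM in Control, and was 3.83-fold lower (adjusted p = 1.8e-13). Igkv8-16 stood at 3.54, 3.44 and 3.18 CPM in 5-FU+FMT, 2.12, 1.85 and 2.94 CPM in 5-FU+Saline and 10.2, 13.6 and 13.4 CPM in Control libraries and was 3.66-fold lower in 5-FU+FMT than in Control. In this segment both 5-FU groups were low, and they did not overlap Control. Igkv1-133 stood at 5.92, 5.76 and 5.42 CPM in 5-FU+FMT, 2.51, 1.72 and 1.70 CPM in 5-FU+Saline and 19.5, 20.0 and 15.8 CPM in Control libraries, 3.21-fold lower in 5-FU+FMT than in Control. Igkv2-112 stood at 8.36, 5.20 and 6.07 CPM in 5-FU+FMT, 6.15, 7.25 and 5.27 CPM in 5-FU+Saline and 14.4, 13.9 and 16.7 CPM in Control libraries, 2.30-fold lower in 5-FU+FMT than in Control, and there the 5-FU groups overlapped each other. Igkv4-57-1 was 2.39-fold lower (adjusted p = 4.4e-32). Igkv14-126 was 1.26-fold lower in CPM, while relative to summed Igkv counts its log2 fold change was 0.0073 (adjusted p = 0.885). Igkv1-135 was 1.31-fold lower in CPM, a call lost relative to summed Igkv counts. Igkv9-120 was 1.11-fold lower in CPM (adjusted p = 0.0196). That call was lost without a filter (adjusted p = 0.129), without Control replicate 1 (0.369), without 5-FU+FMT replicate 2 (0.0874) or 3 (0.0625), and without both libraries in which Igkv1-110 was low (0.0514), and relative to summed Igkv counts Igkv9-120 was called higher (log2 fold change 0.18, adjusted p = 0.00548). Igkv3-2 and Igkv5-43 were not called in CPM (adjusted p = 0.150 and 0.818), but both were called higher relative to summed Igkv counts (log2 fold change 0.25 and 0.32, adjusted p = 0.00015 and 2.3e-06). With upper-quartile scaling Igkv3-2 was called lower (log2 fold change -0.16, adjusted p = 0.0103). Igkv8-21, Igkv6-15 and Igkv10-96 were 1.73-fold, 2.01-fold and 1.60-fold lower, and Igkv1-117 was 1.27-fold higher. Of the plasma cell genes 8 of 11 were lower and 0 higher, and of the pro-B and pre-B cell genes 11 of 12 were higher and 0 lower. The shares over all genes were 21.6% called lower and 25% called higher.

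The 2 comparisons with Control share the Control libraries, so their calls are not independent and are given side by side. Against Control, 36 members (40.9%) were called lower in both 5-FU groups, as were 20.5% of all genes tested, and 15 members (17.0%) were called higher in both, as were 24.2% of all genes. Another 7 members were higher in 5-FU+Saline and lower in 5-FU+FMT (0.0904% of all genes), and 3 the other way round (0.0723%). A further 11 were lower in 5-FU+Saline without a call in 5-FU+FMT (12.1%), and 7 were higher in 5-FU+Saline without a call in 5-FU+FMT (8.53%). Of the rest, 4 were higher and 3 lower in 5-FU+FMT without a call in 5-FU+Saline (0.759% and 0.988%), and 2 were called in neither (32.7%). Of the 36 lower in both, 26 were also called higher in 5-FU+FMT than in 5-FU+Saline and 2 lower. Among the 3405 genes tested that were lower in both, 2062 were also called higher in that comparison and 11 lower. By mean CPM the order was 5-FU+Saline below 5-FU+FMT below Control for 40 of the 88 members (38.3% of all genes), and Control below 5-FU+FMT below 5-FU+Saline for 15 (36.4%). The 5-FU+FMT mean was the highest for 10 members with 5-FU+Saline lowest (5.94% of all genes) and for 5 with Control lowest (7.09%). It was the lowest for 11 with 5-FU+Saline highest (5.14%) and for 7 with Control highest (7.2%).

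**Figure D4:**
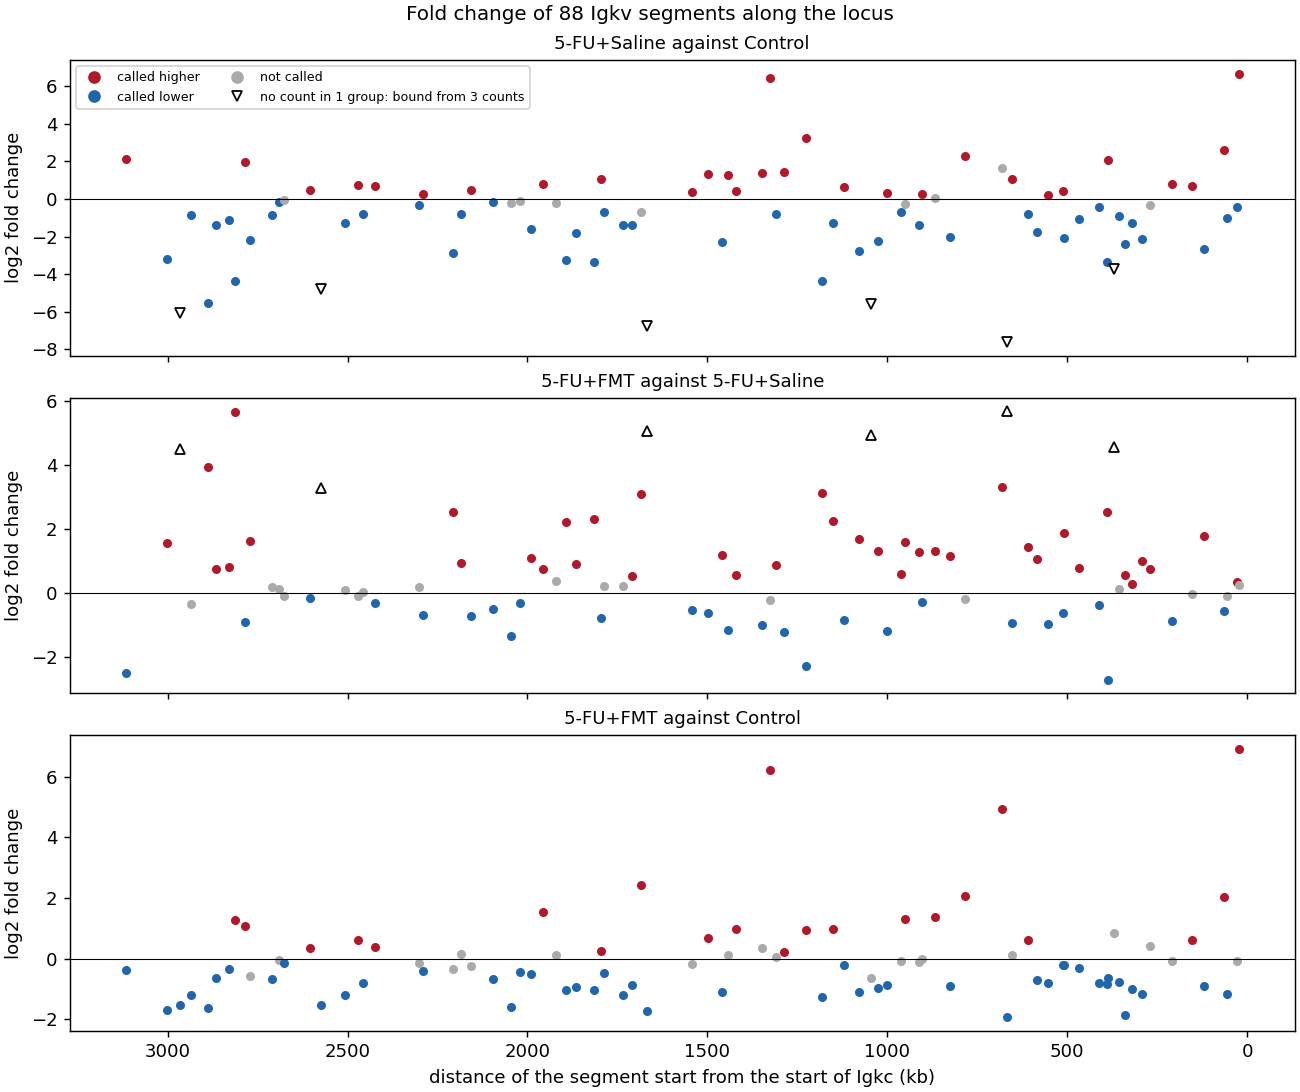
Log2 fold change of each of the 88 Igkv segments in the 3 comparisons, by the distance of its start from the start of Igkc in kb; red, called higher; blue, called lower; grey, not called; open triangles, segments with no count in 5-FU+Saline, drawn at the bound set by 3 counts. Segments called higher and segments called lower are interspersed along the whole locus in each comparison.

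Some near-identical segments went in opposite directions. Of 24 pairs of members whose V exons were at least 95% identical, 11 (45.8%) were called in opposite directions and 6 in the same direction in 5-FU+Saline against Control, 11 and 6 in 5-FU+FMT against 5-FU+Saline, and 8 and 7 in 5-FU+FMT against Control. Over all 3828 pairs of members, 37.9%, 30.6% and 26.4% were opposite in the same comparisons. In the Igkv1 pair shown above, Igkv1-135 was 4.34-fold higher and Igkv1-133 9.33-fold lower in 5-FU+Saline than in Control. In 5-FU+FMT against 5-FU+Saline, Igkv1-135 was 5.68-fold lower and Igkv1-133 2.91-fold higher. Igkv8-28, the partner of Igkv8-19, stood at 12.2, 12.4 and 11.1 CPM in 5-FU+FMT, 6.48, 4.64 and 6.25 CPM in 5-FU+Saline and 18.4, 21.2 and 18.6 CPM in Control libraries. It was 3.32-fold lower in 5-FU+Saline than in Control, where Igkv8-19 was 4.26-fold higher, and 2.05-fold higher in 5-FU+FMT than in 5-FU+Saline. In 5-FU+FMT against Control both members of each pair were called lower, Igkv1-135 1.31-fold, Igkv1-133 3.21-fold, Igkv8-19 1.55-fold and Igkv8-28 1.62-fold. Within the counted exons neither pair shares a stretch of 150 bases, the length of a read. Only 9 members share such a stretch with another Igkv row, and 5 share it over more than 10% of their stretches. The pair of Igkv8-28 and Igkv8-19, and the count over pairs, were chosen after their values were seen.

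Libraries of one group held nearly the same mix of segments. Between 2 libraries of a group, 2.76 to 5.02% of the Igkv counts would have to move to another segment to make the shares equal. Between groups this was 26.0 to 27.8% for 5-FU+FMT and 5-FU+Saline, 16.3 to 17.7% for 5-FU+FMT and Control, and 31.1 to 32.1% for 5-FU+Saline and Control. Within groups the chi-square per degree of freedom over the members was 1.62 to 8.997, where 1 is counting noise, and that over all genes was 1.94 to 2.30. Without Igkv1-110 the members gave 1.64 to 4.31.

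Igkv1-110 varied most within groups. It held 1313, 1113 and 407 counts in 5-FU+FMT, 922, 1109 and 1167 in 5-FU+Saline and 1937, 1555 and 1111 in Control libraries, which were 2.98, 2.90 and 1.06% of the member counts in 5-FU+FMT, 2.29, 2.73 and 2.29% in 5-FU+Saline and 4.01, 4.09 and 1.73% in Control libraries. A single library was low in 5-FU+FMT and another in Control, both labelled replicate 3. Igkv1-110 was called 1.76-fold lower in 5-FU+Saline than in Control (edgeR adjusted p = 1.1e-06) and 1.75-fold lower in 5-FU+FMT than in Control (adjusted p = 4e-06), but libraries overlapped and DESeq2 gave adjusted p = 0.123 and 0.151. With 1 library left out, its log2 fold change lay between -1.17 and -0.60 in the first of these comparisons and between -1.15 and -0.46 in the second. In 5-FU+FMT against 5-FU+Saline it was not called (adjusted p = 0.957), whereas without 5-FU+FMT replicate 3 its log2 fold change was 0.35 (adjusted p = 0.0371). Igkv12-46 held 809, 1122 and 1234 counts in 5-FU+FMT, 776, 701 and 971 in 5-FU+Saline and 1088, 752 and 1512 in Control libraries, with 5-FU+FMT replicate 1 low. Igkv4-80 and Igkv4-55 had Control replicate 2 low, at 0.371% and 0.721% of the member counts. These 4 segments were picked because their spread within a group was the widest, so no test of it is given.

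**Figure D5:**
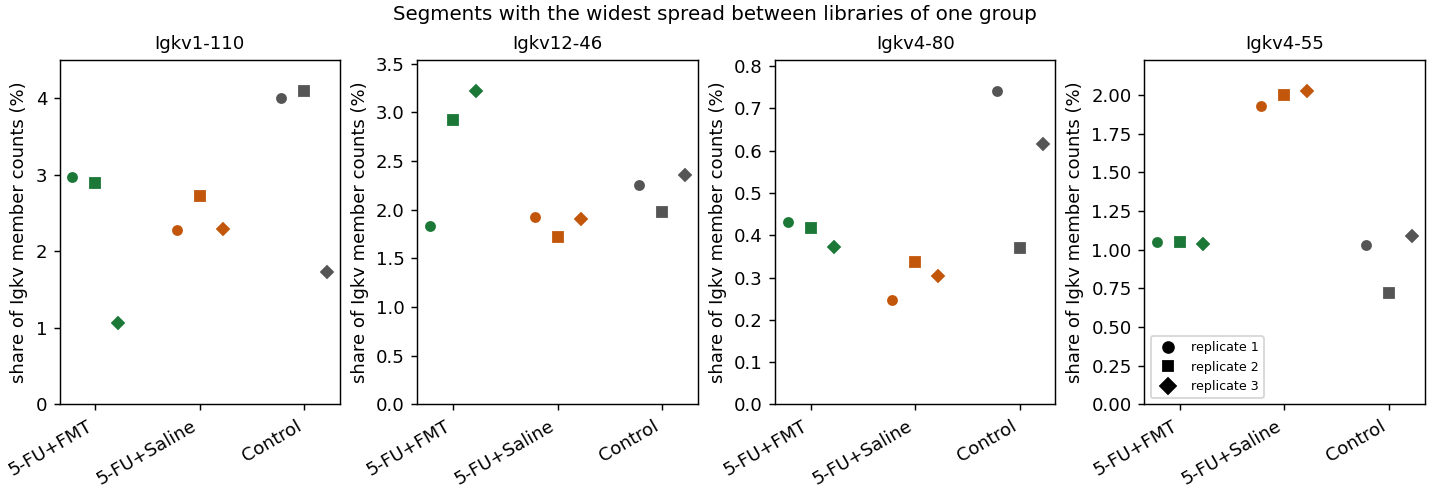
Share of the Igkv member counts (%) taken by the 4 segments with the widest spread between libraries of one group, by group, with the library's replicate number as the point shape. Igkv1-110 lies at 1.06% in 5-FU+FMT replicate 3 and at 1.73% in Control replicate 3, below the other libraries of both groups.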

How the data were processed

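Bulk RNA-seq was made from 9 libraries, 3 per group (total RNA, paired reads, per the labels' protocols). Per the file headers, the authors counted reads per gene with featureCounts 2.0.1 on exons of GENCODE M25 (mm10), for read pairs in alignment files whose names refer to unique pairs. No strand option is shown, so overlapping genes on opposite strands cannot be told apart. Trim Galore 0.6.5 and HISAT2 2.2.1 are named in the submitters' processing notes. The deposited values are raw counts. Of the gene IDs, 55141 matched a symbol in GENCODE M21, which also gave the sequences.

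Counts were tested in edgeR 4.0.16 (R 4.3.3, quasi-likelihood, TMM scaling, all 9 libraries in 1 fit) over 16595 genes that passed filterByExpr, with Benjamini-Hochberg adjustment over all of them and calls at 0.05. Simulated counts were used to check the fit. Shares were compared by exact two-sided permutation tests. Counting intervals are 95% and cover counting error only. The floor of 3 counts over a group covers counting error in the group without counts, and not in the higher group. Alternatives were RLE, upper-quartile and summed-Igkv scaling, no filter, DESeq2 1.42.0, a replicate block, 2-group fits, other member sets, and each library left out.

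Text names the 10 members with the largest mean share and, per comparison and direction, the 5 with the largest fold among those called, at 10 CPM or more in the mean of a compared group and not overlapping. It also names the members nearest the minimum of 50 counts. The members, lists and rules were chosen with earlier results of these data known.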

Additional observations from a re-analysis of the deposited data

How the results depend on the processing

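Counts of called members stayed within 1.5 times of the reported ones under all alternatives run, except that 36 members and not 22 were called higher in 5-FU+FMT than in Control relative to summed Igkv counts. The replicate numbers were not taken to pair libraries. Correlations of same-numbered libraries were at most 0.016 over tested genes, and -0.122 to 0.475 over the members, where all 3 pairs of replicates 3 (0.149, 0.475 and 0.179) but not every pair exceeded 0.1. Differently numbered libraries of 2 groups gave at most 0.014 over tested genes, and -0.460 to 0.298 over the members. With the replicate block the calls were 29 higher and 50 lower (5-FU+Saline against Control), 46 and 26 (5-FU+FMT against 5-FU+Saline) and 22 and 46 (5-FU+FMT against Control). Leaving out 1 library gave 28 to 29, 50 to 50, 43 to 47, 24 to 28, 20 to 22 and 42 to 46 in the same order. Over all alternatives, 1464 values of named segments kept their direction and side of the threshold, 31 lost and 8 gained a call, and 25 turned. Relative to summed Igkv counts, the log2 fold change of 5-FU+Saline against Control turned to 0.012 for Igkv8-21, 0.25 for Igkv10-96, 0.38 for Igkv9-120 and 0.14 for Igkv5-45, that of 5-FU+FMT against Control to 0.0073 for Igkv14-126, 0.18 for Igkv9-120, 0.25 for Igkv3-2 and 0.32 for Igkv5-43, and that of 5-FU+FMT against 5-FU+Saline to -0.065 for Igkv1-110. Igkv1-110 in that comparison was also -0.0015 with RLE, -0.089 with the replicate block and -0.014 with DESeq2. Without a filter, Igkv9-120 turned to 0.0051 (5-FU+Saline against Control) and Igkv5-43 to 0.025 (5-FU+FMT against Control), and with upper-quartile scaling Igkv12-41 to -0.0032 (5-FU+Saline against Control). Leaving out 1 library gave -0.24 to 0.35 for Igkv1-110 and -0.14 to 0.23 for Igkv2-112 (5-FU+FMT against 5-FU+Saline), -0.097 to 0.046 for Igkv9-120 (5-FU+Saline against Control) and -0.048 to 0.017 for Igkv5-43 (5-FU+FMT against Control). Of the other results, 101 counts of called members stayed within 1.5 times, 887 values of summed levels, evenness, shares and ratios kept their direction, and 16 other such values turned. Without Igkv14-126 the difference was 0.34 percentage points for family 3 (5-FU+FMT against 5-FU+Saline), and -0.23 for family 8 and 0.49 for family 14 (5-FU+Saline against Control), and in the Igkv to Igkc ratio 0.022 (5-FU+Saline against Control) and -0.027 (5-FU+FMT against 5-FU+Saline). With a minimum of 500 counts family 3 was 0.0016 percentage points (5-FU+FMT against 5-FU+Saline). Without members that share 150-base stretches, a set chosen after seeing the data, family 6 was -0.30 and the proximal share -0.14 percentage points (5-FU+FMT against 5-FU+Saline). Leaving out 1 library gave -0.21 to 1.15 percentage points for family 1 and -0.81 to 0.086 for the middle share (5-FU+FMT against Control), -0.17 to 0.084 for family 3 and -0.018 to 0.30 for the proximal share (5-FU+FMT against 5-FU+Saline), and -0.0095 to 0.00047 for the ratio (5-FU+FMT against Control). The cause of these turns was not tested. With 3 libraries a group, no share could reach an exact p under 0.1, and segments of few counts have wide counting intervals.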
